A study of Mus musculus with 10 samples.

Results

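Potassium channel genes other than the GIRK genes were read from a hippocampal count table. They were taken as the protein-coding genes whose GRCm38 symbol starts with Kcn, without Kcnj3, Kcnj5, Kcnj6 and Kcnj9 (the G protein-gated inward rectifiers), and with a mean of 0.5 CPM (read counts scaled to a common library size, here with TMM factors) or more over all samples. The table holds 43629 genes, of which 17237 had enough counts to be tested. Of 90 such Kcn genes, 77 passed the CPM rule, and each of these was also tested. They sit on 18 chromosomes.

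Potassium channels let potassium leave or enter a cell and so set its resting potential, the height and width of action potentials and the rate of firing. Pore subunits fall into families that open with voltage (Kv), with calcium or sodium (SK and Slo), at negative potentials (the inward rectifiers, Kir) or at rest (the two-pore-domain K2P channels), and auxiliary subunits (Kvbeta, KChIP, KCNE and BK beta) change the traffic and gating of those pores. In the hippocampus they shape the firing of pyramidal cells, granule cells and interneurons, and in astrocytes they take up potassium released by neurons.

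The tissue came from 10 mice, 5 wild-type (WT) and 5 Dp1Tyb, with 1 library per mouse. The labels give their age as 18 weeks, and the study's methods give a slightly later range. Dp1Tyb mice model Down syndrome and carry 3 copies, instead of 2, of the segment of chromosome 16 from Lipi to Zbtb21, which matches a part of human chromosome 21. Both genotypes are of the strain C57BL/6J.129P2, and the study's methods describe them as male littermates of a colony backcrossed to a C57BL/6J substrain. Every cell of a Dp1Tyb mouse carries the duplication, and the whole hippocampus was taken, so RNA of all its cell types is pooled in a library.

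Total counts ran from 18227684 to 43692270 per sample. Markers of hippocampal principal neurons were present at similar summed levels in both genotypes, 1036 to 1188 CPM in WT and 1062 to 1158 CPM in Dp1Tyb, and none of the 8 was called. Singly, 5 had a positive and 3 a negative log2 fold change. An unadjusted edgeR p under 0.05 was reached by 3 of the 8, beside 14.4% of all tested genes. These were C1ql2 (log2 fold change -0.49) and Prox1 (-0.18), lower in Dp1Tyb, and Neurod6 (0.15), higher. Choroid plexus markers were present as well, at summed levels from 43.5 to 5584 CPM, and the libraries Dp1Tyb 1 and Dp1Tyb 4 held the least of them. In the duplicated segment, 68 of 114 tested genes were called higher in Dp1Tyb and none lower, with a median log2 fold change of 0.53.

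Of the 77 potassium channel genes, 1 was called at an edgeR adjusted p under 0.05, lower in Dp1Tyb. That is 1.299% of the genes, beside 1.11% of all tested genes (191 of 17237). An unadjusted p under 0.05 was reached by 17 potassium channel genes, 7 higher and 10 lower in Dp1Tyb (22.1%), beside 14.4% of all tested genes. The genotypes did not overlap for 4 of the 77 genes (5.19%), beside 3.68% of all tested genes: every Dp1Tyb mouse was above every WT mouse for Kcnq5 and Kcnmb1, and below for Kcnc4 and Kcnk4. A log2 fold change was positive for 33 genes and negative for 44. DESeq2, run on the same counts, called 5 of the 76 potassium channel genes to which it gave an adjusted p, beside 3.2% of all such genes (507 of 15853), among them Kcnc4, Kcnk1 and Kcnab3, lower in Dp1Tyb, and Kcnq5, higher. No potassium channel gene was called in edgeR in 8 of 10 fits that left out 1 library, or without Dp1Tyb 1 and Dp1Tyb 4.

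The median log2 fold change was -0.023 over the 77 genes and -0.0041 over all tested genes, and the median size without regard to sign was 0.11 and 0.086. In the 5 Dp1Tyb mice taken singly against the WT mean, the median over the 77 genes was -0.071, -0.028, -0.032, 0.041 and -0.022. The 95% interval of the log2 fold change lay wholly within a 1.5-fold change in either direction for 65 of the 77 genes (84.4%), beside 79.2% of all tested genes. It lay within a 1.2-fold change for 29 (37.7%), beside 47.9% of all tested genes. For the 1.5-fold and 1.2-fold bounds, the shares were 84.6% and 54.5% of tested protein-coding genes. They were 82.6% and 49.9% of tested genes with a mean of 0.5 CPM or more. Estimates beyond 0.5 in size were found for Kcnmb1 and Kcnj13 alone. In whole tissue, fewer cells of a type and less RNA per cell cannot be told apart, which holds for each difference below.

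**Figure D1:**
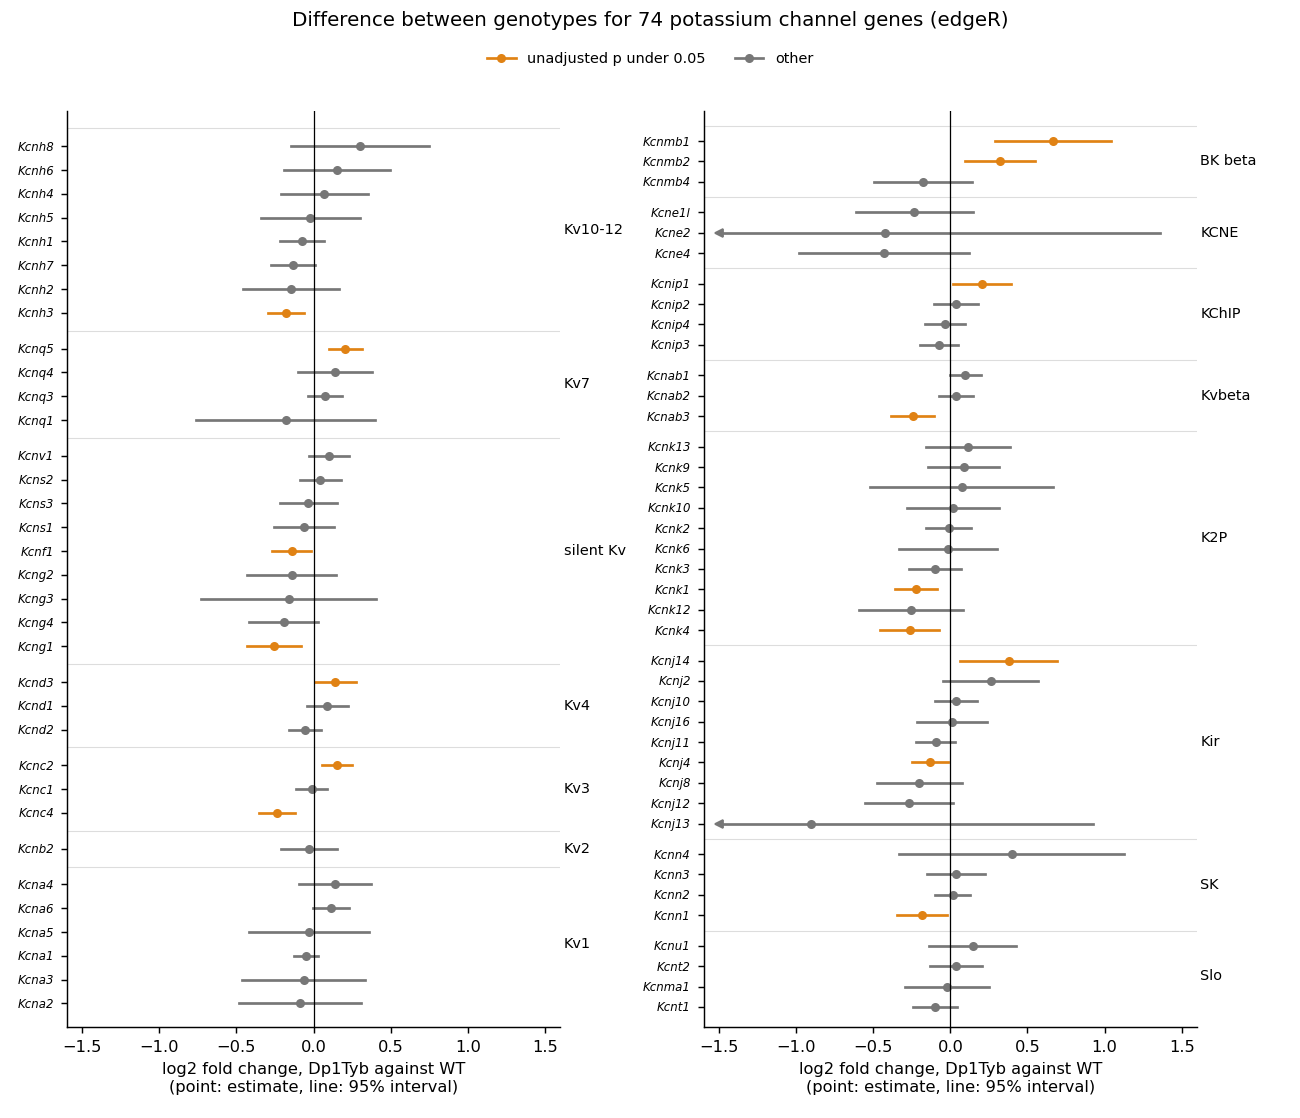
Log2 fold change of Dp1Tyb against WT (horizontal axis) for 74 of the 77 potassium channel genes, grouped by family, with points for the edgeR estimate and lines for its 95% interval. Orange marks the 16 of them that had an unadjusted p under 0.05, and the lines of Kcne2 and Kcnj13 run past the left edge, where an arrowhead marks them.

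Levels were compared between genes per kilobase of exon (RPKM, from the union of annotated exons). The genes ran from 0.125 RPKM for Kcnn4, an intermediate-conductance calcium-activated channel, to 134 RPKM for Kcnab2, a cytoplasmic beta subunit of Kv1 channels. Among the highest were also Kcnip2 (55.9 RPKM), a calcium-binding partner of Kv4 channels, and Kcna1 (47.5 RPKM), a Kv1 pore of axons. Below them stood Kcnj10 (31.8 RPKM), the inward rectifier of astrocytes, Kcnk1 (30.99 RPKM), Kcnj4 (30.6 RPKM) and Kcnip3 (28.2 RPKM). The log2 fold changes of Kcnab2, Kcnip2 and Kcna1 lay between -0.050 and 0.038, with intervals within 1.2-fold in either direction.

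By family, 2 groups of auxiliary subunits took the largest shares of the summed RPKM of the 77 genes. Kvbeta genes gave 19.2% of it (mean over 10 mice), KChIP genes 12.02%, the Kv3 genes 10.46%, Kir genes 10.2%, Kv7 genes 9.69% and Kv1 genes 8.91%. The silent Kv subunits, which join Kv2 pores and form no channel alone, gave 6.98%, and K2P genes gave 6.16%. The Kv4 genes gave 5.07% and the Kv10-12 (ether-a-go-go) genes 4.82%. Slo (2.41%), KCNE (1.51%), SK (1.36%), Kv2 (0.923%) and BK beta (0.291%) genes gave the least. In several families a single gene stood well above the rest, as Kcnab2, Kcna1 and Kcnk1 did in theirs, while Kcnc1, Kcnc2 and Kcnc4 of the Kv3 family stood close together between 16.9 and 21.3 RPKM.

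**Figure D2:**
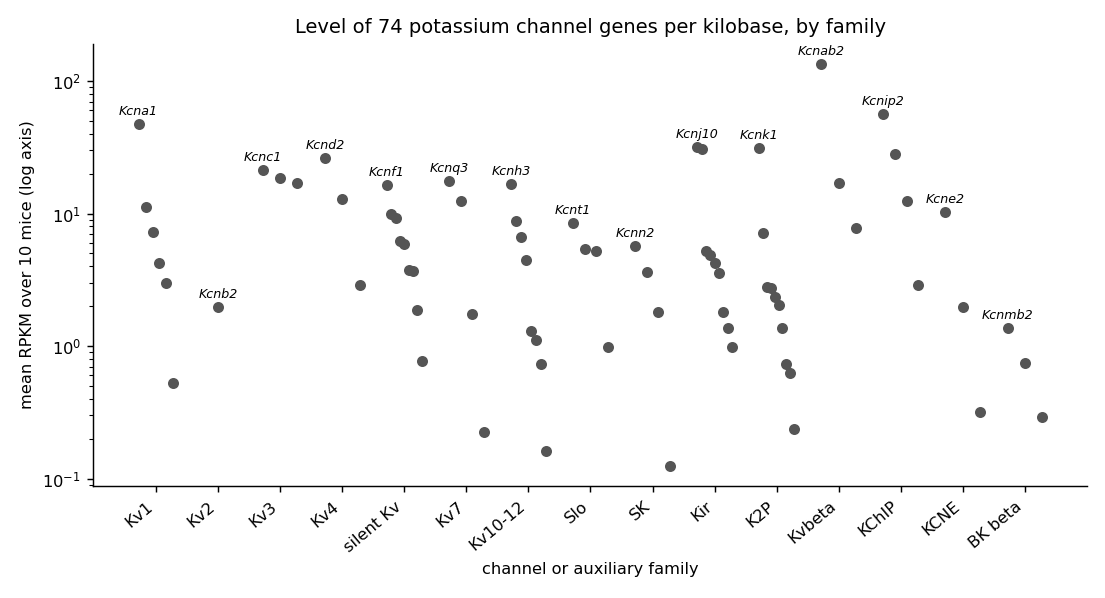
Mean level over the 10 mice (vertical axis, RPKM on a log scale) of 74 of the 77 potassium channel genes, 1 point per gene, by family, with the highest of the plotted genes of each family named. Kcnab2 at 134 RPKM is the highest, Kcnc1, Kcnc2 and Kcnc4 lie within a narrow band, and several K2P, Kv7, Kv10-12 and SK genes lie below 1 RPKM.

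Kv3 channels open at high voltage and close fast, which lets neurons fire in quick trains. Kcnc4 (Kv3.4, ENSMUSG00000027895, chromosome 3, 107438303 to 107459552), which inactivates quickly and is found in presynaptic terminals, was at 71.5, 71.2, 70.3, 83.7 and 69.3 CPM in WT. In Dp1Tyb it was at 63.4, 63.9, 57.98, 63.6 and 61.6 CPM. All 5 Dp1Tyb mice were below the lowest WT mouse, and the highest value, in WT 4, stood apart from the other WT mice. The difference missed the threshold (log2 fold change -0.24 ± 0.054 (SE), edgeR adjusted p = 0.0541) and passed it in DESeq2 (adjusted p = 0.00544). Leaving out WT 4 gave the smallest estimate of the 10 such fits (-0.18 ± 0.041 SE), with a smaller error and an edgeR adjusted p of 0.0728. Over the 10 fits the edgeR adjusted p of Kcnc4 ran from 0.0698 to 0.139.

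Kcnc2 (Kv3.2), the form of many interneurons, was at 114, 119.9, 121, 113 and 104 CPM in WT. It was at 119.7, 132, 123, 132 and 129 CPM in Dp1Tyb. Here 4 Dp1Tyb mice were above every WT mouse, and Dp1Tyb 1 lay among the upper WT mice. The difference did not pass the test after adjustment (log2 fold change 0.15 ± 0.046 (SE), edgeR adjusted p = 0.143, unadjusted p = 0.00488).

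Kcnc1 (Kv3.1), the other main Kv3 form of fast-firing interneurons, was at 195, 213, 204, 198 and 201 CPM in WT. It was at 188, 198, 188, 212 and 217 CPM in Dp1Tyb. The genotypes overlapped over most of their range, and the log2 fold change was -0.012 ± 0.046 (SE; edgeR adjusted p = 0.930), with a 95% interval from -0.11 to 0.088, so a change of 1.2-fold lay outside it.

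Beside these genes, the 6 markers of inhibitory neurons summed to 638 to 713 CPM in WT and 726 to 828 CPM in Dp1Tyb, with no overlap. Most of that sum was Gad1 (log2 fold change 0.21 ± 0.052 SE, edgeR adjusted p = 0.0765) and Gad2. Sst was at -0.049 ± 0.069 (SE, edgeR adjusted p = 0.774). All of the markers were detected, and 4 had a positive and 2 a negative log2 fold change. Of the 6, 2 were called higher, where 1.11% of all tested genes were called. These were Gad2, an enzyme of GABA synthesis (0.34 ± 0.074 SE, edgeR adjusted p = 0.0410), and Vip, a neuropeptide (0.43 ± 0.080 SE, adjusted p = 0.0209). Pvalb, the calcium buffer of the fast-spiking cells known for Kv3.1, was at -0.16 ± 0.11 (SE, edgeR adjusted p = 0.525). Their part in the values of these genes was not tested.

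**Figure D3:**
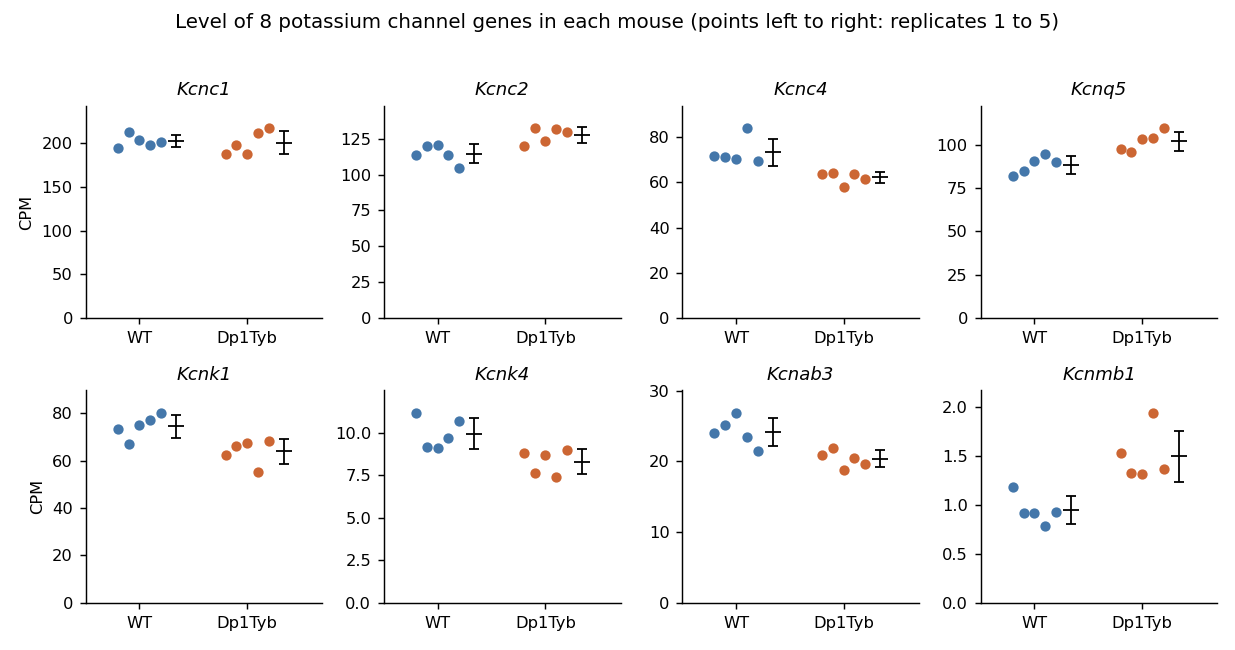
CPM (vertical axes, from 0) of 8 potassium channel genes in each WT (blue) and Dp1Tyb (orange) mouse, with the mean ± SD of each genotype in black (n = 5). The genotypes are apart for Kcnc4, Kcnq5, Kcnk4 and Kcnmb1, and overlap for Kcnc1, Kcnc2, Kcnk1 and Kcnab3.

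Kv7 channels carry the M-current, a slow outward current that muscarinic receptors close. Kcnq5 (Kv7.5, ENSMUSG00000028033, chromosome 1, 21398403 to 21961942) was at 81.9, 84.8, 90.8, 94.7 and 89.8 CPM in WT. It was at 97.7, 95.9, 103, 104 and 109 CPM in Dp1Tyb. Every Dp1Tyb mouse was above every WT mouse, by a narrow margin between Dp1Tyb 2 and WT 4. The adjusted p was just over the threshold (log2 fold change 0.21 ± 0.048 (SE), edgeR adjusted p = 0.0621). Kcnq5 was called in DESeq2 (0.20, adjusted p = 0.00857), without the filter on low counts (adjusted p = 0.0468) and with the choroid plexus level as a covariate (0.24, adjusted p = 0.0498). A replicate block called it as well. It was called in 0 of the 10 edgeR fits that left out 1 library (adjusted p from 0.0591 to 0.148). Nor was it called in limma voom, with DESeq2 size factors or with TMM without the duplicated region.

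The genotypes overlapped for Kcnq3, an M-current pore that was chosen after the values were seen. It was at 257, 269, 232, 263 and 234 CPM in WT and 266, 243, 258, 282 and 273 CPM in Dp1Tyb, with 2 Dp1Tyb mice above every WT mouse (log2 fold change 0.074 ± 0.051 (SE), edgeR adjusted p = 0.532).

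Kv1 channels line axons and limit how many action potentials pass. None of the 6 Kv1 genes had an unadjusted p under 0.05. Kcna1 was at 237, 242, 227, 228 and 221 CPM in WT and 214, 232, 219, 231 and 220.1 CPM in Dp1Tyb. This was the gene with the smallest spread between mice of all 77, a biological coefficient of variation (the spread between mice beyond counting error, from edgeR) of 4.90%, and 3 Dp1Tyb mice were below every WT mouse (log2 fold change -0.050 ± 0.037 (SE), edgeR adjusted p = 0.557). Kcna6 was at 57.5 to 71.4 CPM in WT and 67.6 to 73.2 CPM in Dp1Tyb (log2 fold change 0.11 ± 0.054 (SE), edgeR adjusted p = 0.354). An antisense gene overlaps 39.6% of its exon length on the opposite strand. Kcna2, named because its values varied, ran from 38.5 to 61.9 CPM in WT and from 30.7 to 63.4 CPM in Dp1Tyb, a variation of 20.2% between mice, and the genotypes overlapped (log2 fold change -0.089 ± 0.18 SE).

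Kv4 pores carry the A-type current of dendrites. Kcnd2 (Kv4.2), the main A-type pore of pyramidal cells, was at 143, 146, 128, 137 and 133 CPM in WT. It was at 138, 127, 138, 136 and 122 CPM in Dp1Tyb, and the groups overlapped (log2 fold change -0.054 ± 0.047 (SE), edgeR adjusted p = 0.628). Kcnd3 (Kv4.3) was at 108, 115, 119, 129 and 117 CPM in WT. It was at 123, 119.5, 124, 149 and 132 CPM in Dp1Tyb, with Dp1Tyb 4 the highest and 2 Dp1Tyb mice above every WT mouse (log2 fold change 0.14 ± 0.062 (SE), edgeR adjusted p = 0.318, unadjusted p = 0.0385). Without Dp1Tyb 4 the log2 fold change was 0.083 (edgeR adjusted p = 0.515).

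Among 9 silent Kv genes, 7 had a negative log2 fold change and 2 an unadjusted p under 0.05, both lower, where 51.3% of all tested genes had a negative log2 fold change and 14.4% an unadjusted p under 0.05. Kcng1 (Kv6.1) was at 40.01, 40.5, 44.1, 50.1 and 52 CPM in WT and 38.8, 37.4, 32.97, 41.3 and 39.3 CPM in Dp1Tyb. In 4 Dp1Tyb mice it was below every WT mouse (log2 fold change -0.26 ± 0.081 (SE), edgeR adjusted p = 0.175). Kcnf1 (Kv5.1), the silent subunit with the highest RPKM, was at 83.9, 80.8, 88.2, 84.96 and 77.2 CPM in WT and 77.7, 78.4, 68.9, 83.03 and 67.8 CPM in Dp1Tyb. The groups overlapped, and only Dp1Tyb 3 and Dp1Tyb 5 were clearly below (log2 fold change -0.14 ± 0.059 (SE), edgeR adjusted p = 0.295). No silent Kv gene was called.

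Of the 8 Kv10-12 genes, Kcnh3 (Kv12.2), a channel of forebrain neurons, had the smallest p. It was at 92.2, 100.1, 98, 110.4 and 110.3 CPM in WT and 96.3, 84.8, 88.7, 89.6 and 92.5 CPM in Dp1Tyb. In Dp1Tyb, 3 mice were below every WT mouse (log2 fold change -0.18 ± 0.054 (SE), edgeR adjusted p = 0.161). Kcnh7 (Kv11.3) was at 66.02 to 76.6 CPM in WT and 59.4 to 75.7 CPM in Dp1Tyb. Although 4 Dp1Tyb mice were below every WT mouse, Dp1Tyb 4 lay near the top of the WT range (log2 fold change -0.14 ± 0.066 (SE), edgeR adjusted p = 0.372).

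Calcium-activated SK channels carry the afterhyperpolarization that follows a train of spikes. Kcnn2 (SK2), the member with the highest RPKM of this family, was at 38.8 to 44.02 CPM in WT and 38.9 to 45.4 CPM in Dp1Tyb, with an interval of -0.10 to 0.13 for the log2 fold change. Kcnn1 (SK1) was at 18.7, 18.7, 14.6, 17.2 and 18.6 CPM in WT and 14.8, 15.6, 14.5, 16.4 and 16.2 CPM in Dp1Tyb. WT 3 was as low as the Dp1Tyb mice, and the other WT mice were above all of them (log2 fold change -0.18 ± 0.075 (SE), edgeR adjusted p = 0.298). The Slo family holds the large-conductance BK pore Kcnma1 and the sodium-activated channels. Its leading gene by RPKM, the sodium-activated Kcnt1, was at 73.1 to 89.1 CPM in WT and 70.9 to 88.4 CPM in Dp1Tyb (log2 fold change -0.10 ± 0.066 (SE), edgeR adjusted p = 0.503). Its log2 fold change was -0.16 without Dp1Tyb 1 and also with the choroid plexus covariate, and none of the 4 Slo genes had an unadjusted p under 0.05.

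Inward rectifiers hold the resting potential and clear potassium. Kcnj10 (Kir4.1) of astrocytes was at 168, 193, 164, 168 and 157 CPM in WT. It was at 158, 199, 169, 175 and 172 CPM in Dp1Tyb. The genotypes overlapped (log2 fold change 0.036 ± 0.064 (SE), edgeR adjusted p = 0.826). Of the 8 astrocyte markers, all detected, 6 had a positive and 2 a negative log2 fold change. Of the 8, 2 were called higher, where 1.11% of all tested genes were called. These were Gfap, a filament protein (0.26 ± 0.047 SE, edgeR adjusted p = 0.0167), and S100b, a calcium-binding protein (0.24 ± 0.045 SE, adjusted p = 0.0192). The 8 markers summed to 4542 to 5437 CPM in WT and 4862 to 5286 CPM in Dp1Tyb. Their part in the Kcnj10 values was not tested.

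Kcnj4 (Kir2.3), a neuronal inward rectifier, was at 61.1, 68.8, 73.5, 71.99 and 69.01 CPM in WT and 62.8, 66.7, 66.1, 59.2 and 59.2 CPM in Dp1Tyb, with 2 Dp1Tyb mice below every WT mouse (log2 fold change -0.13 ± 0.055 (SE), edgeR adjusted p = 0.300). Kcnj14 (Kir2.4) was low, at 2.49, 2.29, 1.79, 2.51 and 2.42 CPM in WT. It was at 2.79, 3.497, 2.24, 3.12 and 3.42 CPM in Dp1Tyb, with 4 of the 5 mice above every WT mouse and Dp1Tyb 3 below all but 1 of them (log2 fold change 0.38 ± 0.15 (SE), edgeR adjusted p = 0.269). None of the 9 Kir genes was called.

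K2P channels carry the leak current at rest. Kcnk1 (TWIK1, ENSMUSG00000033998, chromosome 8, 125995170 to 126030685), by far the highest of the 10 K2P genes per kilobase, was at 73.3, 67.1, 75.1, 77.2 and 80 CPM in WT. It was at 62.3, 66.2, 67.6, 55.3 and 68.3 CPM in Dp1Tyb. WT 2 lay among the upper Dp1Tyb mice, and 3 Dp1Tyb mice were below every WT mouse. The difference passed the threshold in DESeq2 (adjusted p = 0.0289) and not in edgeR (log2 fold change -0.22 ± 0.062 (SE), edgeR adjusted p = 0.121). With the choroid plexus level as a covariate, the log2 fold change of Kcnk1 was -0.14 (edgeR adjusted p = 0.270). Kcnk4 (TRAAK), a channel opened by stretch and fatty acids, was at 11.2, 9.19, 9.101, 9.68 and 10.7 CPM in WT. It was at 8.82, 7.66, 8.71, 7.39 and 8.98 CPM in Dp1Tyb, and all 5 were below the lowest WT mouse, though by a small margin (log2 fold change -0.26 ± 0.087 (SE), edgeR adjusted p = 0.193). Kcnk4 shares 13.1% of its exon length with Catsperz on the same strand, so its counts are uncertain.

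No auxiliary subunit of Kv1 or Kv4 pores was called in edgeR. Kcnab3 (Kvbeta3) was at 24.05, 25.1, 26.8, 23.4 and 21.5 CPM in WT. It was at 20.9, 21.9, 18.8, 20.5 and 19.7 CPM in Dp1Tyb. In 4 Dp1Tyb mice it was below every WT mouse, while Dp1Tyb 2 was above WT 5 (log2 fold change -0.25 ± 0.066 (SE), edgeR adjusted p = 0.102). DESeq2 called it (adjusted p = 0.0243). Kcnab2 was at 763, 803, 662, 728 and 734 CPM in WT and 782, 776, 736, 719 and 777 CPM in Dp1Tyb. No Dp1Tyb mouse was outside the WT range (log2 fold change 0.038 ± 0.051 (SE), edgeR adjusted p = 0.762). Kcnab1 was at 131 to 152 CPM in WT and 138 to 157 CPM in Dp1Tyb (log2 fold change 0.10 ± 0.047 (SE), edgeR adjusted p = 0.376).

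Of the 4 KChIP genes, Kcnip1, found in interneurons, was at 17.5, 18.6, 16.04, 16 and 15.2 CPM in WT. It was at 18.6, 22.8, 20.1, 16.6 and 17.96 CPM in Dp1Tyb, and 3 Dp1Tyb mice were above every WT mouse (log2 fold change 0.20 ± 0.087 (SE), edgeR adjusted p = 0.312). Without Dp1Tyb 2, the highest, the log2 fold change was 0.14 (edgeR adjusted p = 0.540). Kcnip2 was at 216, 199.9, 159, 183 and 202 CPM in WT and 201, 185, 203, 197 and 199 CPM in Dp1Tyb, all within the WT range (log2 fold change 0.035 ± 0.066 (SE), edgeR adjusted p = 0.841). Kcnip3, also known as DREAM or calsenilin, was at 93.5 to 107 CPM in WT and 86.3 to 106 CPM in Dp1Tyb (log2 fold change -0.074 ± 0.056 (SE), edgeR adjusted p = 0.571).

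BK beta subunits tune the calcium response of the BK pore, and Kcnmb1 is the form of smooth muscle. Kcnmb1 (ENSMUSG00000020155, chromosome 11, 33963013 to 33973641) was at 1.18, 0.915, 0.921, 0.786 and 0.932 CPM in WT. It was at 1.53, 1.33, 1.32, 1.94 and 1.37 CPM in Dp1Tyb. All 5 Dp1Tyb mice were above the highest WT mouse, WT 1, and Dp1Tyb 4 was the highest. This was the largest estimate among the 77 genes on the higher side and had a wide error (log2 fold change 0.66 ± 0.17 (SE), edgeR adjusted p = 0.0938, 95% interval 0.29 to 1.04). Kcnmb1 lies within the span of Kcnip1, a gene of the opposite strand with a higher mean (18.0 against 1.22 CPM) and a log2 fold change of 0.20. No shared exonic bases were found, but the strand setting of the counts is not known. A part of Kcnip1 RNA in the Kcnmb1 counts was not tested. Over the same mice the 7 mural cell markers, which include smooth muscle genes, summed to 228 to 293 CPM in WT and 248 to 277 CPM in Dp1Tyb, with 3 positive and 4 negative log2 fold changes and none called. Their part in the Kcnmb1 values was not tested. Kcnmb2, a beta subunit that makes BK channels inactivate, was at 3.54, 3.53, 4.33, 3.84 and 3.91 CPM in WT and 4.63, 4.51, 4.16, 5.48 and 5.11 CPM in Dp1Tyb. There 4 Dp1Tyb mice were above every WT mouse (log2 fold change 0.32 ± 0.11 (SE), edgeR adjusted p = 0.186).

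Of Kcnj15, Kcne1 and Kcne2, which lie in the duplicated segment, only Kcne2 passed the CPM rule. Kcne2 (MiRP1, an auxiliary subunit of Kv7 and other pores that is known from choroid plexus and stomach epithelium, ENSMUSG00000039672, chromosome 16, 92292389 to 92298129) was at 14.97, 3.66, 33.5, 20.1 and 30.8 CPM in WT. It was at 0.573, 12.6, 33.7, 0.575 and 30.9 CPM in Dp1Tyb. Dp1Tyb 1 and Dp1Tyb 4 were far below all other mice, WT 2 was the next lowest, and Dp1Tyb 3 and Dp1Tyb 5 were as high as the highest WT mice. With that spread, the log2 fold change of -0.43 ± 0.83 (SE) was not told from 0 (edgeR adjusted p = 0.846), and its 95% interval, -2.21 to 1.36, held both a rise by the ratio of gene copies and a fall.

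Kcnj13 (Kir7.1), the inward rectifier of choroid plexus and retinal pigment epithelium, followed a similar order of mice. It was singled out after its values were seen. It was at 4.88, 0.915, 13, 10.3 and 13.05 CPM in WT. It was at 0.206, 2.31, 9.95, 0.151 and 10.9 CPM in Dp1Tyb. Again Dp1Tyb 1 and Dp1Tyb 4 were the lowest and WT 2 the next (log2 fold change -0.90 ± 0.85 (SE), edgeR adjusted p = 0.653). Exons of Gigyf2 on the opposite strand cover 49.1% of its exon length, so its counts are uncertain. These were the 2 most variable of the 77 genes, with a variation between mice of 96.9% for Kcnj13 and 92.3% for Kcne2, and Kcnn4 came next with 29.2%.

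The summed CPM of 11 choroid plexus markers was 2898, 440.3, 5584, 4315 and 5186 in WT and 43.5, 1477, 3944, 52.5 and 3791 in Dp1Tyb. Each of the 11 markers was detected, had a negative log2 fold change and was not called. The mice low in Kcne2 and Kcnj13 were those low in these markers. A covariate was then added to the same edgeR model, the mean of the log2 CPM of the 11 markers, in which each marker counts equally. With it the log2 fold change of Kcne2 was 0.52 ± 0.13 (SE, edgeR adjusted p = 0.105) and that of Kcnj13 was 0.17 ± 0.14 (SE, edgeR adjusted p = 0.703). Without Dp1Tyb 1 and Dp1Tyb 4, that of Kcne2 was 0.33 ± 0.49 (edgeR adjusted p = 0.856). Per 100 CPM of these markers without Ttr, Kcne2 was at 5.77, 4.63, 4.79, 3.91 and 4.75 CPM in WT. In Dp1Tyb it was at 1.87, 6.81, 8.25, 1.57 and 6.60 CPM. By this measure Dp1Tyb 1 and Dp1Tyb 4 were below every WT mouse and the other Dp1Tyb mice above every WT mouse. The ratio of Kcne2 to Kcnj13 counts was 3.07, 4, 2.58, 1.95 and 2.36 in WT and 2.78, 5.44, 3.39, 3.80 and 2.83 in Dp1Tyb. It rested on 25 and 9 counts in Dp1Tyb 1 and on 19 and 5 in Dp1Tyb 4.

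**Figure D4:**
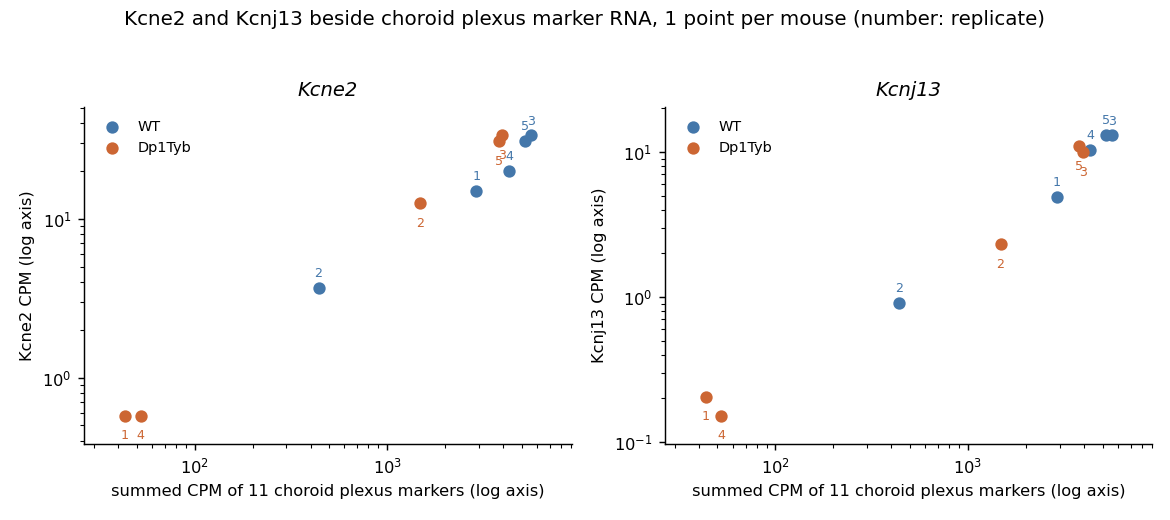
CPM of Kcne2 (left) and Kcnj13 (right) on vertical log axes against the summed CPM of 11 choroid plexus markers on horizontal log axes, 1 point per WT (blue) or Dp1Tyb (orange) mouse with its replicate number. Dp1Tyb 1 and 4 lie at the lower left with 43.5 and 52.5 CPM of markers, WT 2 follows, and the other mice lie at the upper right.

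Kcne2 and Kcnj13 varied in a similar order between mice, and Kcnc4 and Kcnq5 did not overlap between the genotypes. Kcnk4 and Kcnmb1 did not overlap either and are not shown here. None of these genes was called in the main fit. The promoters of Kcne2, Kcnj13, Kcnc4 and Kcnq5 follow, and their part in the values was not tested. Each runs from 250 bases before to 50 after the annotated start, 5′ to 3′ on the strand of the gene, from the RefSeq table for GRCm38.p6. Capitals mark GGGCGG (the GC box), CCAAT and TATAAA (the TATA box), searched on both strands. Kcne2 (chr16:92292139-92292438, plus strand, 1 of 2 starts) holds 1 GC box. Kcnj13 (chr1:87394680-87394979, minus strand) holds 2 CCAAT matches and 1 TATA box. Kcnc4 (chr3:107458849-107459148, minus strand) holds 1 GC box, and Kcnq5 (chr1:21962601-21962900, minus strand, 1 of 2 starts) holds 1 CCAAT match. The RefSeq starts of these 2 genes differ from the gene positions given above. The Kcnq5 window lies wholly upstream of that gene's span (21398403 to 21961942), and the Kcnc4 window lies within the span of Kcnc4.
Kcne2: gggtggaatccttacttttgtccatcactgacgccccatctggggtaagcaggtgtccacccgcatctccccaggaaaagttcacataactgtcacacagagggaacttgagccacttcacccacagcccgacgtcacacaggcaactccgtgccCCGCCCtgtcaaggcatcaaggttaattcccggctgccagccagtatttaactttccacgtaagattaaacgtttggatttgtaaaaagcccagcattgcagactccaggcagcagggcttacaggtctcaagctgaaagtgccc
Kcnj13: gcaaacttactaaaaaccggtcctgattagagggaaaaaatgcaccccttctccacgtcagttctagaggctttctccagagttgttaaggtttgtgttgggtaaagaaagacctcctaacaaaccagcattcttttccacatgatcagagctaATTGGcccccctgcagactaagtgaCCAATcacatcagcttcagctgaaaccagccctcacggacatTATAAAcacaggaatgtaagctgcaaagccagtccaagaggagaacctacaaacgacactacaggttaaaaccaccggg
Kcnc4: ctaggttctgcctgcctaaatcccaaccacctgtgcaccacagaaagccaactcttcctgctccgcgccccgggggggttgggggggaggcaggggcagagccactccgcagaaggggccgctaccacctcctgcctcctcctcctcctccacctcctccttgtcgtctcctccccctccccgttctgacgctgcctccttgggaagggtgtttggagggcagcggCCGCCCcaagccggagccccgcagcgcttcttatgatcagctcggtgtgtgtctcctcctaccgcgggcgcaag
Kcnq5: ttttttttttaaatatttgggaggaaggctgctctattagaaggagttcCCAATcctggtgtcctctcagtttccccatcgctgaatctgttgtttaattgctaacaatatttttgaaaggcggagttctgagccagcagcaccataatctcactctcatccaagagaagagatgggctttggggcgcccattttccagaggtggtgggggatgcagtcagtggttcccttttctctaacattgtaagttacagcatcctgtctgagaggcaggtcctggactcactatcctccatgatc

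The RefSeq table held 77 promoters for 54 of the 77 genes, beside 32851 promoters in all. GGGCGG was in 50.6% of the potassium channel promoters and in 35.7% of all promoters, CCAAT in 29.9% and 37.4%, and TATAAA in 3.90% and 13.6%. Their median GC content was 59.7%, against 52.7% for all promoters. Of the promoters printed above, those of Kcne2 (53.0%), Kcnj13 (46.0%) and Kcnq5 (46.0%) lay below the median of the potassium channel promoters, and that of Kcnc4 (66.7%) above it. A match is a run of letters and was not tested as a binding site.

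Kcnj15 and Kcne1, the other members of that trio in the duplicated segment, were near the limit of detection and were not tested. Kcnj15 (Kir4.2) had 7, 4, 2, 7 and 3 counts in WT and 5, 3, 3, 9 and 3 in Dp1Tyb. Kcne1, the subunit of the slow cardiac delayed rectifier, had 3, 5, 0, 0 and 0 counts in WT and 5, 2, 5, 2 and 1 in Dp1Tyb. A count of 0 allows a level of up to 3 counts, which is 0.0907 to 0.163 CPM in those WT libraries, so a change in the ratio of gene copies was not detectable at this depth.

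At the CPM cutoff the genes just inside were Kcnn4 (0.637 CPM), Kcnh8 (0.739 CPM) and Kcnk5 (0.807 CPM). Just outside were Kcnrg (0.463 CPM), Kcne3 (0.260 CPM) and Kcnv2 (0.174 CPM). Kcnh8 (Kv12.1) was at 0.513 to 0.839 CPM in WT and 0.638 to 1.03 CPM in Dp1Tyb, and Kcnk5 (TASK2) at 0.419 to 0.956 and 0.559 to 1.37 CPM. The genotypes overlapped for both. Kcnn4 was at 0.291 to 0.786 CPM in WT and 0.412 to 1.37 CPM in Dp1Tyb. At these levels the 95% interval reached a log2 fold change of 0.75 for Kcnh8, 0.67 for Kcnk5 and 1.13 for Kcnn4.

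A list of 22 genes whose proteins bind potassium channels, or form the related HCN channels, was read from the same test. Of these, 21 were tested and none was called in edgeR, with 5 at an unadjusted p under 0.05, 3 higher and 2 lower in Dp1Tyb. Those 5 are 23.8% of the 21 genes, beside 14.4% of all tested genes, of which 1.11% were called. Cntnap2, which clusters Kv1 channels beside the node of Ranvier, was at 94.8, 111, 110.4, 116 and 95.5 CPM in WT. It was at 113, 126, 129, 134 and 131 CPM in Dp1Tyb. In Dp1Tyb 4 of 5 mice were above every WT mouse (log2 fold change 0.26 ± 0.063 (SE), edgeR adjusted p = 0.0659). Adam23, a receptor of the Lgi1 protein that regulates Kv1 channels, was at 126 to 141 CPM in WT and 139 to 151 CPM in Dp1Tyb (log2 fold change 0.16 ± 0.040 (SE), edgeR adjusted p = 0.0774). DESeq2 called both of these genes.

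The remaining partner genes with an unadjusted p under 0.05 were Abcc8, the sulfonylurea receptor of the ATP-sensitive channel (log2 fold change -0.19 ± 0.073 (SE), edgeR adjusted p = 0.273), Hcn2 (log2 fold change -0.15 ± 0.062 (SE), edgeR adjusted p = 0.295) and Hcn4 (log2 fold change 0.43 ± 0.19 (SE), edgeR adjusted p = 0.332), pores of the pacemaker current that opens on hyperpolarization. Dpp6, the partner of Kv4 channels with the highest level of the list (34.95 RPKM), was at 403 to 462 CPM in WT and 428 to 454 CPM in Dp1Tyb (log2 fold change 0.042 ± 0.042 (SE), edgeR adjusted p = 0.672). The median log2 fold change of the 21 genes was 0.027, with 16 positive and 5 negative.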

How the data were processed

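Per the labels and methods, poly(A) RNA of whole hippocampus was made into stranded libraries and read as paired ends. The deposited table gives unnormalized read counts by Ensembl gene. Per the submitters' processing notes and the methods, the authors used Trim Galore, TopHat2 2.0.12 on GRCm38, HTSeq and DESeq2 1.6.3, and discarded reads with several alignments. The strand setting and the annotation release of the counting are not given in the sources used here, so 20 of the 77 genes, which share exonic bases with another gene (18 on the opposite strand, 2 on the same), are less certain. A deposited table of counts divided by size factors, and one of the authors' own fold changes and p-values, were not used.

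Symbols, positions and exon lengths came from GENCODE M21 (GRCm38), in which 42548 of the 43629 genes were matched. The others held 0.103% of counts and were tested without a position. All 10 samples, grouped by labelled genotype, were fitted without covariates by the quasi-likelihood F-test of edgeR 4.0.16 (R 4.3.3) with TMM, filterByExpr and Benjamini-Hochberg adjustment over 17237 genes, and called at an adjusted p under 0.05. The code was tested on simulated data. Standard errors are those that give the test's statistic, intervals are 95%, and a count of 0 was read as allowing up to 3 counts. That limit covers counting error only, whereas the intervals of fold changes include the spread between mice. Tables were handled with Python 3.11.15 and pandas 2.3.3. The depth, given in the text, limits the lowest genes most. Labels give no batch or date, so no within-batch values could be had. The mice are separate animals.

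Alternatives were DESeq2 1.42.0, limma voom (limma 3.58.1), DESeq2 size factors, TMM without the duplicated region, no filter, each library left out, a replicate block, the choroid plexus marker level as a covariate (log2 of CPM with a prior count of 2) and membership at a mean CPM of 1. Genes named were those called, the 20 with the smallest p, the 12 with the highest RPKM, the highest of each family, Kcnj15, Kcne1 and Kcne2, the 3 on either side of the cutoff and any partner called. Others are marked as chosen later. Of the 77 genes, 3 are counted but their values are not reported here. Members, lists and tests were chosen with earlier results of these data known.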

Additional observations from a re-analysis of the deposited data

Results flagged for a closer look

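In each group of 5 mice, the highest and lowest value of every named potassium channel gene was set against the nearest other mouse by Dixon's ratio, and 3 of 64 groups had a mouse standing apart. Chance flags about 1 in 20 groups, which is 3.2 here. Kcnc4 in WT 4 was at 83.7 CPM, where the other WT mice were at 69.3 to 71.5 CPM. Kcna6 in Dp1Tyb 2 was at 73.2 CPM, where the others were at 67.6 to 69.2 CPM. Kcnk5 in Dp1Tyb 5 was at 1.37 CPM, where the others were at 0.559 to 0.769 CPM. Without WT 4, the log2 fold change of Kcnc4 was -0.18 ± 0.041 (SE, edgeR adjusted p = 0.0728).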

How the results depend on the processing

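Across 33 named genes and up to 18 alternatives, 573 of 593 comparisons kept their direction and their side of the threshold. The 33 leave out the 1 gene called in the main fit, so for them keeping that side meant staying uncalled. The number of potassium channel genes called was 1 with DESeq2 size factors, TMM without the duplicated region, limma voom or the choroid plexus covariate. With the covariate that gene was Kcnq5. It was 2 without the filter on low counts, 5 in DESeq2, and 0 without Dp1Tyb 1 and 4, a setting chosen after seeing the data. Leaving out 1 library gave 0 to 1 calls, with 0 in 8 of the 10 fits. The median log2 fold change was between -0.065 and 0.026 with 1 library left out, positive without Dp1Tyb 1 (0.026) and without WT 4 (0.0072) and lowest without Dp1Tyb 4 (-0.065). The partner genes gave 1 call without the filter, 2 in DESeq2 and 0 to 1 with a library left out. The fits without a library have fewer samples, and the cause was not tested further.

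Kcne2 turned to 0.52 with the covariate and to 0.33 without Dp1Tyb 1 and 4, it was between -0.94 and -0.092 with 1 library left out, and limma voom gave -2.03. Kcnj13 turned to 0.17 with the covariate. The other changes of direction were in genes near 0. With 1 library left out, Kcnc1 ran from -0.041 to 0.011, Kcnip2 from -0.025 to 0.081, Kcnj10 from -0.015 to 0.082, Kcnk5 from -0.14 to 0.18 and Kcnn2 from -0.014 to 0.049. The cause was not tested.

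WT and Dp1Tyb mice share replicate numbers, and whether these numbers pair the mice is not known. Same-numbered mice correlated from -0.069 to 0.28 in their deviations from the group means, and other pairs from -0.45 to 0.47. Of 10 mice, 1 correlated best with its own number. These correlations over all tested genes showed no clear pairing and cannot exclude one. A replicate block gave 3 potassium channel calls, among them Kcnc4 and Kcnq5, and 1 partner call (Cntnap2). Genes near the CPM cutoff and the duplicated Kcnj15 and Kcne1 are limited by depth.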

Other observations

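Several potassium channel genes outside the named set showed a one-sided order of mice or a wide spread, and all were chosen after their values were seen. Kcnj2 (Kir2.1), a classical strong inward rectifier, was at 18.02, 20.1, 19.7, 16.9 and 13.7 CPM in WT. It was at 22.4, 14.1, 26.3, 22.6 and 20.5 CPM in Dp1Tyb. In Dp1Tyb, 4 mice were above every WT mouse and the other, replicate 2, was above WT 5 alone (log2 fold change 0.26 ± 0.14 (SE), edgeR adjusted p = 0.425). Kcnj11 (Kir6.2), the pore of the ATP-sensitive channel, was at 15.6, 15.8, 16.1, 16.7 and 16.4 CPM in WT. It was at 14.7, 16.7, 14.9, 14.5 and 14.9 CPM in Dp1Tyb, with 4 mice below every WT mouse by small margins (log2 fold change -0.10 ± 0.059 (SE), edgeR adjusted p = 0.487). Its receptor subunit Abcc8 had a log2 fold change of -0.19 ± 0.073 (SE) in the same direction. Abcc8 and Kcnj11 lie close together on chromosome 7 (46104523 to 46180033 and 46093953 to 46100764), and a link between their values was not tested. None of Kcnj2, Kcnj11 and Abcc8 was called.

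Kcnma1, the BK pore, was at 71.2, 92.6, 103, 111 and 83.6 CPM in WT and 71.4, 86.4, 83.96, 111 and 103 CPM in Dp1Tyb, and no Dp1Tyb mouse was outside the WT range (log2 fold change -0.021 ± 0.13 (SE), edgeR adjusted p = 0.958). Its beta subunit Kcnmb1, by contrast, was higher in all 5 Dp1Tyb mice, and a test of the difference between the pore and the subunit was not run. Kcna3 (Kv1.3), known from microglia and other immune cells, was at 4.13, 6.32, 6.93, 6.47 and 5.13 CPM in WT and 4.12, 5.21, 4.68, 8.05 and 5.56 CPM in Dp1Tyb, with the highest and the lowest mouse both Dp1Tyb. The 6 microglia markers summed to 209 to 240 CPM in WT and 173 to 227 CPM in Dp1Tyb, with 2 positive and 4 negative log2 fold changes and none called, and their part in the Kcna3 values was not tested.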
